A study of Homo sapiens with 12 samples.

Results

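Of the 12 libraries of the study, 6 came from SH-SY5Y cells that had received hydrogen peroxide (H2O2) and all-trans retinoic acid (ATRA), and these 6 were compared here with each other. SH-SY5Y, a subclone of the line SK-N-SH, is a neuroblastoma line widely used as a model of human neurons. RNA sequencing covered total RNA depleted of ribosomal RNA. In the 3 pre-treated cultures, H2O2 was given for 72 h before ATRA was started. In the 3 co-treated cultures, H2O2 was present together with ATRA for all 7 days. ATRA was given for 7 days in both groups, and the 6 other libraries came from ATRA-only controls, 3 in each experiment, which did not enter the main test. The H2O2 dose is 10 mM in the deposited description and 10 μM in the study's methods. Exposure before ATRA and exposure during ATRA were 2 experiments, so the timing of H2O2, its duration, the time since the last exposure and the experiment itself cannot be told apart in any value below. Nothing states that replicate cultures were grown on separate days, so the p-values measure the spread between these samples, which may be technical.

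ATRA binds nuclear retinoic acid receptors, which switch on target genes such as those of the CYP26 enzymes that degrade it, and in this cell line it slows division and promotes neurite outgrowth. H2O2 is a diffusible oxidant that cells remove with catalase, peroxiredoxins and glutathione peroxidases, and its signals reach p53, the antioxidant factor NRF2 and growth factor pathways. The comparison asks which transcripts differed at the end of differentiation between cells exposed before it and cells exposed throughout it.

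Reads counted on genes were 98287391, 68374246 and 78304452 in pre-treated replicates 1 to 3 and 27576276, 63182696 and 50298593 in co-treated replicates 1 to 3, so every pre-treated library was deeper than every co-treated one. Loci of small structured RNAs took 15.3, 15.2 and 13.4% of these reads in the pre-treated and 5.23, 13.2 and 9.62% in the co-treated libraries. Co-treated replicate 1, the shallowest library, was the first to separate in hierarchical clustering. The mean distance between libraries of different groups was 1.11 times that within groups. Pre-treated replicate 3 also stood apart from its group in genes that ATRA induces. CYP26A1, the main ATRA-degrading enzyme, was at 1213, 1192 and 123 CPM (reads per 1e+06 counted reads, TMM-scaled) in pre-treated replicates 1 to 3 and at 1526, 1239 and 1170.5 in the co-treated ones. CRABP2, which carries retinoic acid to its receptors, was at 1710.2, 1546 and 286 CPM against 2372, 1833 and 2134. DHRS3, a retinaldehyde reductase, was at 509.8, 459.6 and 102 CPM against 564, 462 and 494. Values without either library are therefore given where they change a result. The labelled cell type was present in all 6 libraries, with HAND2, a transcription factor of noradrenergic neurons, at 347, 382 and 460.4 CPM in pre-treated and 405, 303 and 321 CPM in co-treated cells.

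The test, edgeR's quasi-likelihood test with Benjamini-Hochberg adjustment (FDR), covered the 22442 genes that reached 0.181 CPM in at least 3 of the 6 libraries. All log2FC values are pre-treated minus co-treated. A gene was called where its FDR was below 0.05 and its log2FC beyond 1 in either direction. There were 91 such genes, of which 71 were higher in pre-treated cells (0.316% of all genes tested) and 20 were lower (0.0891%). On the FDR alone, 114 genes were higher (0.508%) and 76 lower (0.339%). An unadjusted p below 0.05 was reached by 1774 genes in the higher direction (7.9%) and 1918 in the lower (8.55%), and the median log2FC of all genes was -0.003. In all 91 called genes, the 3 pre-treated and the 3 co-treated values did not overlap, as was also the case for 2668 genes tested on the higher side (11.9%) and 2321 on the lower (10.3%). The number of calls depended on single libraries. It was 10 without co-treated replicate 1, 6 without co-treated replicate 3, 39 and 43 without pre-treated replicates 1 and 2, 98 without co-treated replicate 2 and 318 without pre-treated replicate 3. By the FDR alone, 507 of 21883 genes were higher and 607 lower without pre-treated replicate 3. With DESeq2 and all libraries, 564 of 22442 were higher and 599 lower, and list counts below are to be read beside these. Of the 91 genes, 6 remained called without co-treated replicate 3, 9 without co-treated replicate 1, 31, 37 and 79 without pre-treated replicates 1, 2 and 3 and 52 without co-treated replicate 2. Most of these calls were thus lost without co-treated replicate 1 or 3 or without pre-treated replicate 1 or 2. Most were kept without co-treated replicate 2 or pre-treated replicate 3. The direction was kept in every gene that could be tested. COL3A1, SLC18A1, PRSS12 and H19 were called in all 6 of these fits, and the first 3 also under every other test and normalisation tried.

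**Figure D1:**
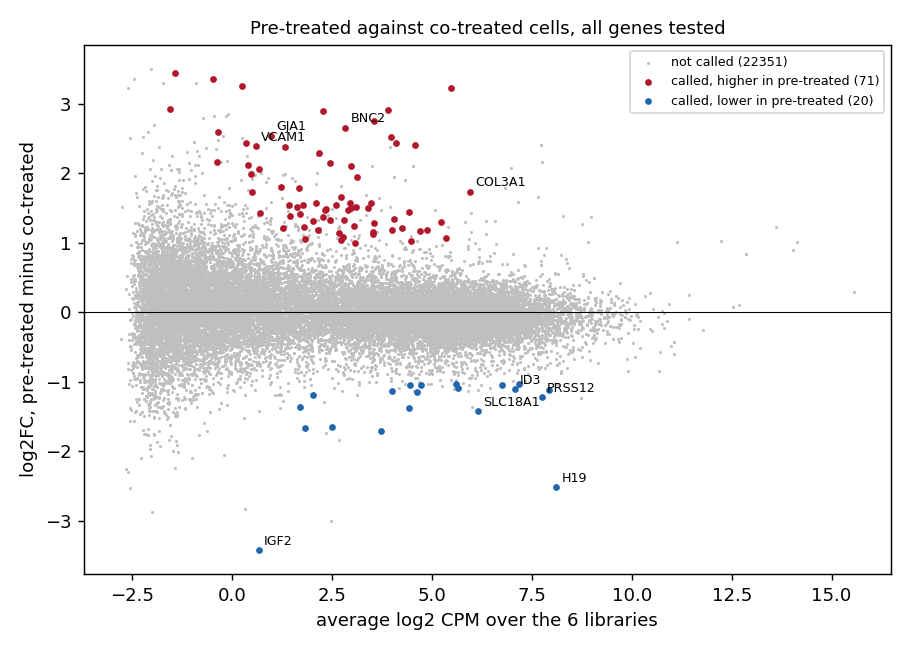
The log2FC (pre-treated minus co-treated, vertical axis) of each of the 22442 genes tested is plotted against its average log2 CPM over the 6 libraries (horizontal axis). Red points are the 71 genes called higher and blue points the 20 called lower in pre-treated cells, with 9 of them named.

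**Figure D2:**
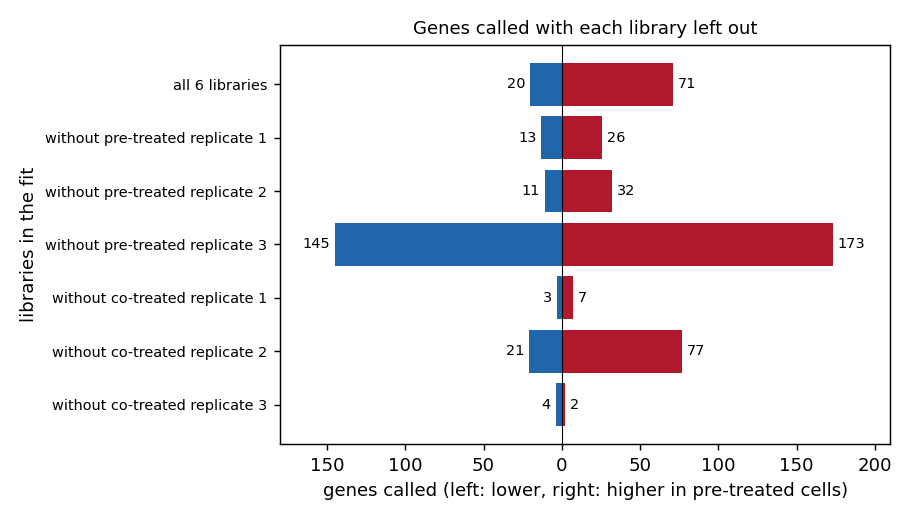
Bars give the genes called with all 6 libraries and with each library left out, with genes lower in pre-treated cells to the left and higher ones to the right. The counts run from 2 higher and 4 lower without co-treated replicate 3 to 173 higher and 145 lower without pre-treated replicate 3.

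COL3A1, COL6A3 and ADAMTS5, which encode proteins of the extracellular matrix, were higher in pre-treated cells. COL3A1 encodes the chain of type III collagen, a fibrillar collagen of soft connective tissue, and lies at chromosome 2, 189839099 to 189877472 on hg19. It was at 112, 86.3 and 86.0 CPM in pre-treated and 26.5, 28.7 and 30.2 CPM in co-treated replicates 1 to 3, or 94.9 ± 15.2 against 28.5 ± 1.85 (SD, n = 3), with a log2FC of 1.74 (SE 0.13, FDR 0.00197). The lowest pre-treated value was far above the highest co-treated one, and the difference was the most significant of all genes. COL6A3, a chain of the microfibril-forming type VI collagen, was at 12.1, 14.4 and 8.30 CPM against 3.70, 5.26 and 5.62 (log2FC 1.24, SE 0.23, FDR 0.0448). ADAMTS5, a protease that cleaves the proteoglycan aggrecan, was at 7.82, 5.92 and 8.09 CPM against 0.899, 1.31 and 2.17 (log2FC 2.29, SE 0.30, FDR 0.0168). Of 31 collagen genes tested, only COL3A1 and COL6A3 were called, and the median log2FC of the 31 was 0.05. The COL6A3 call was lost without any 1 of 5 of the 6 libraries, the exception being pre-treated replicate 3. In the ATRA-only controls, scaled over all 12 libraries, COL6A3 was also higher in the pre-treatment experiment. It was at 8.68, 4.40 and 5.33 CPM there against 3.47, 1.81 and 1.70 in the co-treatment experiment, a log2 difference of 1.41.

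Among the adhesion molecules, VCAM1, a cell-surface receptor that binds integrins, was at 2.49, 2.23 and 2.37 CPM in pre-treated and 0.539, 0.478 and 0.351 CPM in co-treated cells (log2FC 2.39, SE 0.28, FDR 0.0168). Its integrin partner ITGA4, picked after its values had been seen, was called too, at 8.69, 8.03 and 9.18 CPM against 3.20, 4.62 and 3.87 (log2FC 1.14, SE 0.19, FDR 0.0297). The lowest pre-treated value of either gene was at least 1.5 times the highest co-treated one. GJA1, which forms the connexin 43 gap junction channel, was at 3.46, 2.48 and 3.50 CPM against 0.432, 0.558 and 0.605 (log2FC 2.54, SE 0.28, FDR 0.0125). These are low levels, and in co-treated cells GJA1 and VCAM1 lay near the level of the ATRA-only controls of that experiment (GJA1 0.510, 0.661 and 0.585 CPM, VCAM1 0.449, 0.533 and 0.672 CPM, scaled over all 12 libraries). GJA1 was the only called gene of 32 tested that mark the mesenchymal state of neuroblastoma, whose median log2FC was 0.06. In that list, PDGFRA, a receptor of platelet-derived growth factor, was higher by the FDR alone (log2FC 0.92, SE 0.15, FDR 0.0297), at 297, 342 and 275 CPM against 185, 171 and 127, while ID1, an inhibitor of differentiation, and CCND1, cyclin D1, were lower by the FDR alone (-0.81 and -0.84). Since RNA of whole cultures was measured, a changed number of expressing cells and a changed level per cell cannot be told apart.

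FGF1, FGFR2 and FGF14, of the fibroblast growth factor (FGF) family and its receptors, were higher in pre-treated cells. FGF1, a secreted ligand of all FGF receptors, was at 34.4, 38.2 and 34.8 CPM in pre-treated and 15.2, 15.9 and 16.5 CPM in co-treated cells (log2FC 1.17, SE 0.11, FDR 0.00509). FGFR2, an FGF receptor, was at 2.02, 1.48 and 2.71 CPM against 0.539, 0.494 and 0.527 (log2FC 2.00, SE 0.32, FDR 0.0265). FGF14, an intracellular homologue that modulates voltage-gated sodium channels, was at 22.7, 27.1 and 43.3 CPM against 14.3, 9.0 and 11.2 (log2FC 1.44, SE 0.25, FDR 0.0354). The FGF1 values lay close together within each group, whereas pre-treated replicate 3 was the highest for FGF14 and FGFR2. In the list of growth factor receptors and ligands, with 39 genes tested, 2 were called higher and 1 lower, and the median log2FC was 0.02. By the FDR, 5 were higher and 2 lower without pre-treated replicate 3. The gene called lower was IGF2, described below.

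NRP1, NRP2 and SEMA3D, members of the semaphorin system that steers axons and migrating neural crest cells, were higher. NRP1, a co-receptor of class 3 semaphorins and VEGF, was at 6.90, 5.95 and 8.93 CPM against 2.23, 3.28 and 2.26 (log2FC 1.48, SE 0.23, FDR 0.0271). Its paralogue NRP2 was at 2.57, 2.73 and 6.73 CPM against 0.827, 0.797 and 0.703 (log2FC 2.37, SE 0.39, FDR 0.0310). The secreted ligand SEMA3D was at 5.78, 3.97 and 4.11 CPM against 1.40, 2.02 and 1.74 (log2FC 1.41, SE 0.24, FDR 0.0366). NRP2 was highest in pre-treated replicate 3, and its call was lost without any 1 of the 3 co-treated libraries. PLXNA2, a signal-transducing receptor of the same ligands, went the other way by the FDR alone, at 328, 382 and 441 CPM against 639, 578 and 626 (log2FC -0.68, SE 0.13, FDR 0.0448), as did SEMA6D (log2FC -0.56, SE 0.11, FDR 0.0478). Among 43 axon guidance genes tested, 3 were thus called higher, 2 were lower by the FDR alone, and the median log2FC was -0.08. By the FDR, 4 were higher and 6 lower without pre-treated replicate 3.

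**Figure D3:**
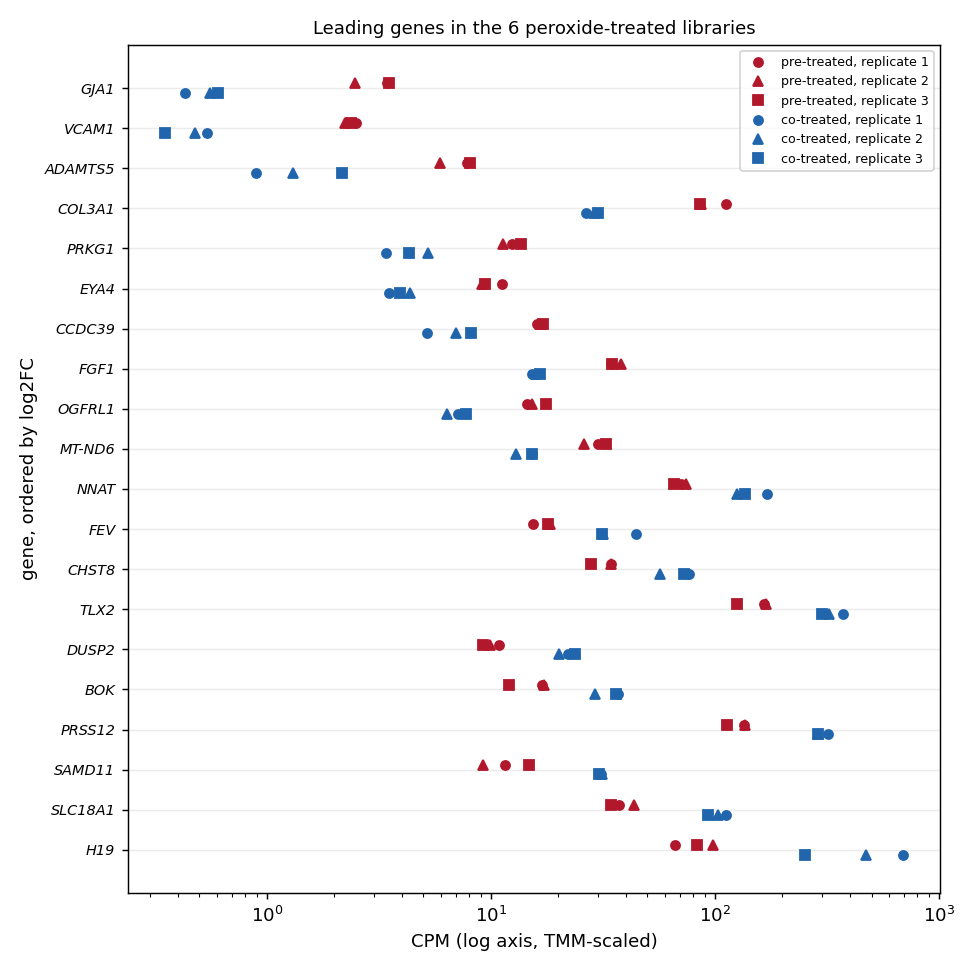
Each point is the CPM (log axis) of 1 library for the 10 genes in each direction with the smallest p among the leading genes, ordered by log2FC, with pre-treated libraries in red and co-treated in blue and 1 marker shape per replicate number. The groups do not overlap in any of the 20 genes, because leading genes had to meet that condition. For COL3A1 the pre-treated libraries lie between 86.0 and 112 CPM and the co-treated ones between 26.5 and 30.2.

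The other leading genes that were higher included signalling molecules and transcriptional regulators. PRKG1, the cGMP-dependent protein kinase, was at 12.4, 11.4 and 13.6 CPM against 3.42, 5.26 and 4.30 (log2FC 1.52, SE 0.19, FDR 0.0168). MYLIP, a ubiquitin ligase that degrades the LDL receptor, was at 8.84, 10.7 and 14.9 CPM against 3.78, 4.27 and 4.08 (log2FC 1.5, SE 0.21, FDR 0.0221). EYA4, a transcriptional coactivator that works with homeodomain factors, was at 11.2, 9.16 and 9.38 CPM against 3.52, 4.35 and 3.94 (log2FC 1.32, SE 0.17, FDR 0.0168). In all 3 the gap between the groups was wider than the range of the co-treated values. BNC2, a zinc finger protein of mesenchymal cells, was at 7.29, 8.75 and 20.2 CPM against 1.62, 2.07 and 2.01 (log2FC 2.66, SE 0.37, FDR 0.0221), with replicate 3 well above the other pre-treated libraries. RAB27B, a small GTPase of vesicle exocytosis, was likewise highest in pre-treated replicate 3, at 15.4, 22.3 and 48.6 CPM against 6.08, 5.51 and 4.43 (log2FC 2.43, SE 0.37, FDR 0.0241). OGFRL1 was at 14.5, 15.3 and 17.6 CPM against 7.12, 6.39 and 7.73 and CCDC39, a protein of motile cilia, at 16.1, 16.5 and 17.1 against 5.18, 7.01 and 8.16, with a log2FC of 1.16 and 1.28.

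MT-ND6, the complex I subunit that is encoded on the light strand of mitochondrial DNA, was the only called gene of 13 mitochondrially encoded proteins. It was at 30.0, 26.1 and 32.8 CPM against 15.2, 13.0 and 15.3 (log2FC 1.03, SE 0.13, FDR 0.0168), while the median log2FC of the 13 was 0.04 and the summed level was 4367, 4301 and 4842 CPM in pre-treated and 6150.2, 5318 and 4913 in co-treated cells. The library kit was stranded, but the strand setting of the counting is not given in the sources used here, so reads of MT-ND6 and of heavy-strand RNA across it cannot be told apart. The call was lost without pre-treated replicate 3 and without any of the 3 co-treated libraries.

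SLC18A1 and PRSS12, which act in neurosecretory cells and at synapses, were the most significant of the genes lower in pre-treated cells. SLC18A1, the vesicular monoamine transporter of neuroendocrine cells, was at 37.4, 43.5 and 34.4 CPM in pre-treated and 112, 103 and 93.6 CPM in co-treated replicates 1 to 3, or 38.4 ± 4.66 against 103 ± 9.38 (SD, n = 3), with a log2FC of -1.42 (SE 0.12, FDR 0.00350). PRSS12, the synaptic serine protease neurotrypsin (chromosome 4, 119201193 to 119274158 on hg19), was at 135, 136 and 114 CPM against 321, 289.6 and 289 (log2FC -1.22, SE 0.11, FDR 0.00473). In both genes the co-treated values were more than 2-fold the pre-treated ones in every pairing of libraries. FEV, an ETS factor of serotonergic neurons, was at 15.4, 18.4 and 18.0 CPM against 44.4, 31.7 and 31.3 (log2FC -1.05, SE 0.16, FDR 0.0241). CHST8, which sulphates sugars of pituitary hormones, was at 34.3, 34.3 and 28.1 CPM against 76.6, 56.9 and 72.5 (log2FC -1.09, SE 0.14, FDR 0.0168). TLX2, a homeobox factor of neural crest-derived neurons, was at 165, 168 and 126 CPM against 374, 323 and 301 (log2FC -1.12, SE 0.14, FDR 0.0168). SLC6A2, the noradrenaline transporter, picked after its values had been seen, was lower by the FDR alone (log2FC -0.73, SE 0.11, FDR 0.0238). In the synaptic vesicle list, SLC18A1 and RAB27B were the genes called among 36 tested, in opposite directions.

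H19, IGF2 and NNAT, known as imprinted genes that are expressed from 1 parental allele, were called lower in pre-treated cells, and the log2FC of IGF2 and of H19 were the most negative of all 20 genes called lower. They were grouped after their values had been seen, and imprinted genes were not tested as a list. H19, a long noncoding RNA (chromosome 11, 2016396 to 2025782 on hg19), was at 66.0, 98.1 and 83.3 CPM in pre-treated and 692, 471 and 252 CPM in co-treated cells (log2FC -2.51, SE 0.31, FDR 0.0168). Its co-treated values spread widely and yet all exceeded the pre-treated ones. IGF2, the insulin-like growth factor encoded beside H19, was at 0.147, 0.250 and 0.455 CPM against 4.39, 4.06 and 0.722 (log2FC -3.42, SE 0.65, FDR 0.0448). Co-treated replicate 3 was near the pre-treated level for IGF2, and this call was lost under 13 of 23 alternatives, among them limma-voom, robust estimation, 2 other normalisations and the removal of any 1 of 4 of the 6 libraries. NNAT, the membrane proteolipid neuronatin, was at 70.4, 73.9 and 65.4 CPM against 171, 125 and 137 (log2FC -1.05, SE 0.13, FDR 0.0168). In the ATRA-only controls, scaled over all 12 libraries, NNAT was also lower in the pre-treatment experiment, at 83.4, 97.0 and 166.9 CPM against 172.5, 177.7 and 167.5. IGF2 controls overlapped, at 1.96, 76.4 and 4.30 CPM against 5.59, 2.77 and 5.67, with a log2 difference (pre minus co) of 0.96. The first exon of H19 is also the precursor of miR-675, whose mature products were not measured in these libraries. They are shown because H19 had the largest decrease among the leading genes, with the seed, bases 2 to 8, in capitals (RefSeq, GRCh38.p14, minus strand).
hsa-miR-675-5p, chr11:1996800-1996822: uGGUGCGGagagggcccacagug
hsa-miR-675-3p, chr11:1996768-1996787: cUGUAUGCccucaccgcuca
The seeds of these products differ from each other, and H19 itself is the only readout of the locus given here.

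ID3 and DUSP2, which are induced by BMP and by MAP kinase signalling, were called lower. ID3, which blocks basic helix-loop-helix factors and is a target of BMP signalling, was at 100.4, 95.9 and 59.5 CPM against 196, 172 and 183 (log2FC -1.11, SE 0.18, FDR 0.0285). Picked after their values had been seen, 4 further genes known as BMP targets, namely ID1 (39.6, 37.2 and 40.7 CPM against 72.9, 68.7 and 64.9), SMAD6 (15.9, 14.9 and 16.0 against 25.2, 28.6 and 30.8), SMAD7 (35.2, 35.5 and 32.7 against 59.6, 53.8 and 63.0) and MSX2 (11.7, 10.2 and 9.73 against 20.5, 18.3 and 24.3), were lower by the FDR alone, with log2FC values of -0.81, -0.86, -0.77 and -0.99. The groups did not overlap in any of these 4, which adds no support, since they were picked by their values. BMP targets were not tested as a list, and those that did not pass were not counted. DUSP2, a phosphatase that inactivates MAP kinases, was at 10.9, 9.88 and 9.25 CPM against 22.2, 20.2 and 23.8 (log2FC -1.14, SE 0.13, FDR 0.0168), and DUSP4, of the same family, was lower by the FDR alone (log2FC -0.74, SE 0.13, FDR 0.0413). SAMD11, a chromatin-associated SAM domain protein, was at 11.6, 9.25 and 14.7 CPM against 31.0, 31.5 and 30.3 (log2FC -1.38, SE 0.17, FDR 0.0168), and BOK, of the BCL2 family, at 16.9, 17.3 and 12.1 against 36.9, 29.0 and 36.2 (log2FC -1.14, SE 0.16, FDR 0.0222).

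Other called genes, chosen after their values had been seen, included further molecules of the nervous system and of secretion. RELN, the extracellular glycoprotein reelin that positions migrating neurons, was at 5.75, 5.66 and 9.27 CPM in pre-treated and 2.37, 2.96 and 2.62 CPM in co-treated cells (log2FC 1.37, SE 0.24, FDR 0.0381). LGI1, a secreted protein of synapses linked to epilepsy, was at 15.2, 13.0 and 6.26 CPM against 3.74, 4.46 and 3.34 (log2FC 1.58, SE 0.30, FDR 0.0448), and FLRT3, an adhesion molecule with fibronectin and leucine-rich repeats, at 14.3, 12.9 and 19.4 against 4.67, 7.01 and 4.69 (log2FC 1.5, SE 0.22, FDR 0.0222). In RELN and FLRT3 pre-treated replicate 3 was the highest library, whereas in LGI1 it was the lowest of its group. SORCS3, a sorting receptor of neurons, was at 20.4, 18.2 and 11.1 CPM against 5.0, 6.29 and 5.25 (log2FC 1.58, SE 0.23, FDR 0.0221), and RYR2, a calcium release channel, at 3.38, 3.45 and 3.60 against 1.19, 1.12 and 0.722 (log2FC 1.80, SE 0.26, FDR 0.0221). The small GTPase GEM, which restrains calcium channels, was at 44.1, 56.1 and 65.1 CPM against 30.4, 25.5 and 23.0 (log2FC 1.07, SE 0.16, FDR 0.0241). Of secreted ligands of the TGF-beta superfamily, TGFB2 was at 6.59, 5.48 and 6.61 CPM against 1.87, 1.47 and 2.91 (log2FC 1.58, SE 0.26, FDR 0.0310) and GDF7 at 4.36, 5.25 and 5.24 against 1.37, 1.35 and 2.34 (log2FC 1.54, SE 0.26, FDR 0.0333). The groups of all these genes were separate, as they were in all 91 called genes. KAL1, an older symbol of the gene for anosmin-1, which guides olfactory axons, was low in co-treated cells, at 1.21, 1.28 and 1.10 CPM against 0.108, 0.0956 and 0.371 (log2FC 2.59, SE 0.49, FDR 0.0456).

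Among the other genes called lower, again chosen after their values had been seen, PDE10A, a phosphodiesterase of cyclic nucleotides, was at 1.70, 2.84 and 3.73 CPM against 8.52, 10.5 and 6.97 (log2FC -1.66, SE 0.28, FDR 0.0356). The G protein-coupled receptor GPR35 was at 7.52, 8.23 and 2.97 CPM against 23.4, 18.4 and 19.4 (log2FC -1.71, SE 0.31, FDR 0.0413), with pre-treated replicate 3 the lowest. PAPPA2, a protease that cleaves IGF-binding proteins, was at 1.70, 2.18 and 1.26 CPM against 5.97, 7.12 and 3.12 (log2FC -1.66, SE 0.32, FDR 0.0499). These 3 genes had the most negative log2FC after IGF2 and H19. ASF1B, a histone chaperone of S phase, was at 11.6, 11.9 and 18.98 CPM against 33.9, 26.8 and 27.3 (log2FC -1.05, SE 0.20, FDR 0.0448), with pre-treated replicate 3 the closest to the co-treated cells.

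The 5 neuronal markers of the study did not pass the FDR threshold. TUBB3, neuronal tubulin, was at 612, 686 and 491 CPM against 879, 568 and 768 (log2FC -0.31, FDR 0.422), and ENO2 and SV2A had log2FC values of -0.36 and -0.49 (FDR 0.258 and 0.152). MAP2 was at 335, 346 and 409.6 CPM against 289, 322 and 306 (log2FC 0.25, FDR 0.316). MAPT had a log2FC of -0.09 (SE 0.18, FDR 0.837), and its sign changed without co-treated replicate 1 and with the GC trend removed. Of 20 neuronal markers none passed the FDR threshold, 4 were higher and 4 lower at an unadjusted p below 0.05, DESeq2 gave 1 in each direction by the FDR, and their summed CPM overlapped between the groups. Among 20 genes of noradrenergic identity, HAND1 alone passed the FDR threshold (36.5, 40.0 and 40.4 CPM against 59.1, 53.1 and 57.6, log2FC -0.54, SE 0.11, FDR 0.0499), and the median log2FC was -0.06. Without pre-treated replicate 3, 1 was higher and 6 were lower by the FDR, with a median of -0.33, and DESeq2 with all libraries gave 1 and 4. ISL1 was at 155, 152 and 180.2 CPM against 117, 114 and 119 (log2FC 0.48, FDR 0.0718) and DBH, which makes noradrenaline, at 125, 199 and 319 against 493, 336 and 325 (log2FC -0.84, FDR 0.189). In the ATRA-only controls, scaled over all 12 libraries, HAND1 was also lower in the pre-treatment experiment. It was at 27.2, 29.9 and 31.2 CPM there against 63.7, 46.4 and 35.3 in the co-treatment experiment, a log2 difference of -0.68.

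Of 20 genes of the retinoic acid pathway, RARA, the receptor alpha, was the only one to pass the FDR threshold, and it was lower in pre-treated cells, at 29.4, 31.7 and 22.0 CPM against 57.9, 40.9 and 52.3 (log2FC -0.86, SE 0.17, FDR 0.0499). RARG was at 30.9, 34.3 and 23.3 CPM against 50.7, 39.5 and 46.8 (FDR 0.0975) and STRA6, the retinol carrier, at 87.3, 105 and 64.0 against 155, 129 and 131 (FDR 0.0892). The median log2FC of the list was -0.40, and its summed level was 7157, 7162 and 2219 CPM in pre-treated and 9256, 7365 and 8149.9 CPM in co-treated cells. Pre-treated replicate 3 was thus more than 3-fold below replicates 1 and 2, which were close to the co-treated range. CYP26B1 showed the same order, at 318, 426 and 21.7 CPM against 665, 504 and 632 (FDR 0.422). Without pre-treated replicate 3 the median was -0.13, and 2 genes of the list were higher and 4 lower by the FDR.

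Cell cycle genes and replication-dependent histones, whose transcripts mark S phase, lay on the lower side in pre-treated cells, but single genes seldom passed the test. All 38 cell cycle genes had a negative log2FC, with a median of -0.60, 28 had an unadjusted p below 0.05 and none passed the FDR threshold. DESeq2 gave 18 of them as lower at that threshold. CDC20, which activates the anaphase-promoting complex, was at 13.5, 12.8 and 24.3 CPM against 35.5, 32.3 and 34.1 (log2FC -1.01, SE 0.22, FDR 0.0691), and the mitotic kinase PLK1 was at 10.1, 10.3 and 17.8 against 30.9, 23.1 and 22.3 (log2FC -0.99, SE 0.23, FDR 0.0756). Summed over the list, the level was 2217, 2046 and 4022 CPM in pre-treated and 4377, 4257 and 3712 CPM in co-treated cells, so pre-treated replicate 3 was inside the co-treated range and replicates 1 and 2 were far below it. Without that library 37 of the 38 genes were lower by the FDR, with a median of -0.97. Of 69 histone genes, 67 had a negative log2FC, 46 were lower at an unadjusted p below 0.05 and HIST1H2BE and HIST1H2BI by the FDR, of which HIST1H2BE was called (81.3, 74.0 and 131 CPM against 210.3, 202 and 171, log2FC -1.03, SE 0.20, FDR 0.0465). Histone genes are near-identical in sequence, so reads may be split among copies. The histone sums were 4359.6, 4112 and 6980.4 CPM against 7586, 9622 and 7019.8, and without pre-treated replicate 3 the FDR threshold was passed by 47 of 68 genes, while DESeq2 with all libraries gave 26 of 69. Medians of both lists were negative with every normalisation, left-out library and GC correction. By the median, both lists were also lower in the ATRA-only controls of the pre-treatment experiment, scaled over all 12 libraries. The control difference (log2, pre minus co) was -0.35 for cell cycle genes and -1.003 for histones, or -0.49 and -1.56 without pre-treatment control 3. The histone sums were 1871, 3301 and 8738 CPM in these controls against 5930 to 9653 CPM in the co-treatment ones. The treated and control differences were not tested against each other.

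**Figure D4:**
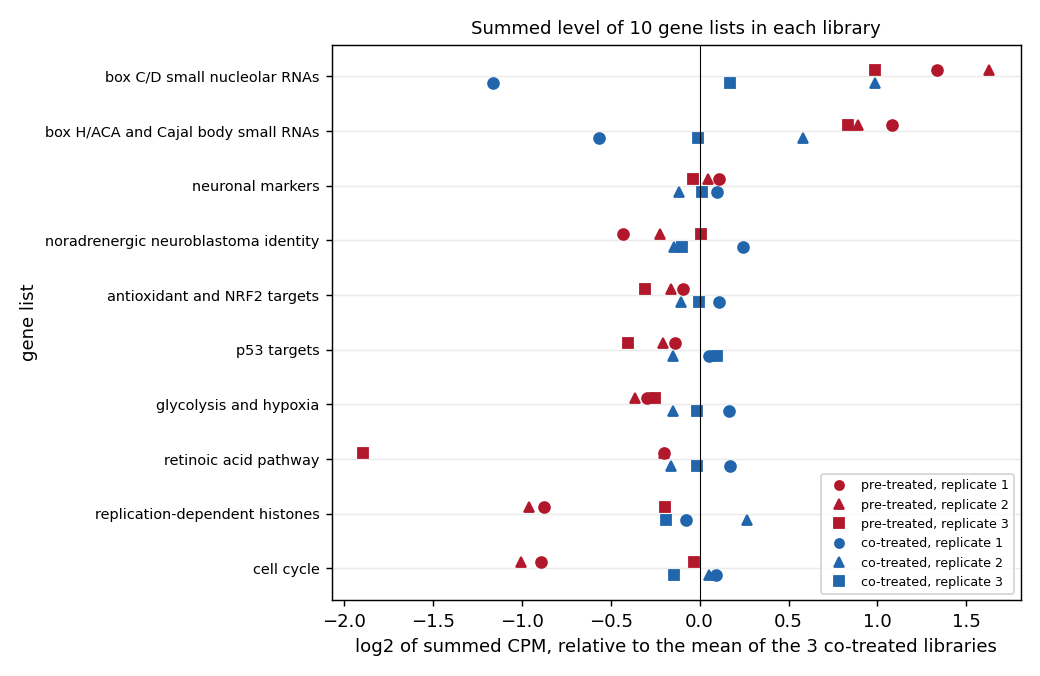
Each point is the summed CPM of a gene list in 1 library, as log2 relative to the mean of the 3 co-treated libraries, with pre-treated libraries in red, co-treated in blue and 1 marker shape per replicate number. Pre-treated replicate 3 lies near the co-treated level for cell cycle genes and histones and lowest for the retinoic acid pathway, and co-treated replicate 1 is the lowest for small nucleolar RNAs.

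Small structured RNAs made up 12 of the 71 genes called higher, and the number of such loci among all genes tested was not counted. Box H/ACA and Cajal body RNAs guide RNA modification, mostly pseudouridylation, and 4 of 91 tested were called higher, against 71 of 22442 over all genes tested. At an unadjusted p below 0.05, 42 of the 91 were higher and none lower, against 7.9% and 8.55% of all genes, and the median log2FC was 0.74. SNORA53, picked after its values had been seen, was at 94.4, 70.2 and 75.3 CPM against 1.26, 18.4 and 5.19 (log2FC 3.22, SE 0.63, FDR 0.0499). SNORA74A was at 29.7, 25.7 and 24.3 CPM against 1.44, 8.0 and 3.92 (log2FC 2.53, SE 0.42, FDR 0.0320), and SNORA74B at 15.5, 13.4 and 12.2 against 1.62, 5.51 and 3.26 (log2FC 1.95, SE 0.34, FDR 0.0356). Their sequences are alike, so reads may be split between them. The symbol RNU12, used for the U12 RNA of the minor spliceosome, was at 36.0, 11.3 and 30.7 CPM against 1.29, 6.04 and 2.66 (log2FC 2.91, SE 0.52, FDR 0.0396). The annotation used here places this symbol at RNU12-2P, a locus on chromosome X named as a pseudogene, so which U12 copy was counted is not settled. RNU1-1 and RNU1-3, near-identical copies of U1, had log2FC values of 2.11 and 2.15. Of 64 box C/D RNAs, which guide ribose methylation, none passed the FDR threshold in edgeR's test against 5 higher in DESeq2, 11 were higher and 1 lower at an unadjusted p below 0.05, and the median was 0.32. SNORD17 was at 411, 288 and 375 CPM against 16.6, 123 and 61.7 (FDR 0.0667). In the list of 7SL, 7SK, U, Y and vault RNAs with their pseudogenes, 7 of 241 were called higher, against 71 of 22442 over all genes tested. The ATRA-only controls, scaled over all 12 libraries, also spread widely. SNORD17 was at 21.5, 26.9 and 298 CPM in the pre-treatment and 28.0, 86.4 and 210 CPM in the co-treatment experiment. For SNORA74A these were 1.16, 1.45 and 18.6 against 1.14, 4.52 and 10.4 CPM. The total share of small RNAs given above was lowest in co-treated replicate 1, also the shallowest library, and the summed H/ACA level was lowest there too. Without co-treated replicate 1, 1 H/ACA gene passed the FDR threshold, and without pre-treated replicate 3, 13 H/ACA and 4 box C/D genes were higher by the FDR. The part of this share and of the depth in the result was not tested.

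With all 6 libraries, no gene of the p53, antioxidant or glycolysis lists passed the FDR threshold in edgeR's quasi-likelihood test. Without pre-treated replicate 3, 3 p53 targets, 3 antioxidant genes and 5 glycolysis genes were lower by the FDR and none higher, and edgeR's exact test gave 4, 2 and 2. Over all genes, 507 were higher and 607 lower of 21883 without that library. The exact test gave 497 and 420 of 22442, and DESeq2 564 and 599. Of 28 p53 targets, 11 were lower and none higher at an unadjusted p below 0.05, and DESeq2 gave 4 as lower by the FDR. CDKN1A, the p21 inhibitor of cyclin-dependent kinases, was at 171, 169 and 110.1 CPM in pre-treated and 278, 221 and 289 in co-treated cells (log2FC -0.81, FDR 0.0667), and the cytokine GDF15 was at 12.2, 14.2 and 8.08 against 26.7, 17.7 and 29.0 (log2FC -1.09, FDR 0.0629). Of 37 antioxidant and NRF2 target genes, 7 were lower and none higher at an unadjusted p below 0.05, and DESeq2 gave 3 as lower by the FDR. GPX3, the extracellular glutathione peroxidase, was at 9.64, 9.45 and 5.05 CPM against 17.7, 14.3 and 16.7 (FDR 0.0778), and NQO1, a quinone reductase, at 44.6, 40.2 and 12.9 against 66.8, 64.0 and 61.3 (FDR 0.202). Medians were -0.16 for p53 targets, -0.19 for antioxidant genes and -0.22 for 35 glycolysis and hypoxia genes, in which GAPDH (log2FC -0.51, FDR 0.0868) and ALDOA (log2FC -0.53, FDR 0.125) had the smallest p. Of the 35, 2 were higher and 9 lower at an unadjusted p below 0.05, and DESeq2 gave 3 as lower by the FDR. In 8 further lists no gene passed the FDR threshold in edgeR's quasi-likelihood test with all libraries. Without pre-treated replicate 3, 4 cholesterol synthesis genes were higher, 2 channels were higher and 2 lower, and 1 ATF4 and unfolded protein response gene and 1 clustered protocadherin were lower by the FDR. At an unadjusted p below 0.05, 3 of 18 heat shock proteins were lower, 3 of 30 ATF4 and unfolded protein response genes were higher and 5 lower, 4 of 24 cholesterol synthesis genes were higher and 1 lower, and 1 of 20 MHC class I and interferon response genes was higher. In the same way, 6 of 83 cytosolic ribosomal proteins were lower, 6 of 42 ion channels were higher and 7 lower, 3 of 12 laminins and basement membrane genes were lower, and 1 of 54 clustered protocadherins was higher and 6 lower. By the FDR in DESeq2, 4 channels were higher and 4 lower, and none of the other 7 lists held more than 2 genes. One HOX gene of 11, HOXC4, was lower by the FDR alone (log2FC -0.84, SE 0.14, FDR 0.0310), and among 18 immediate early genes DUSP4 was.

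A list of 25 genes held genes that the study discusses in other comparisons, together with 4 genes that its text does not name (SAMD11, SCUBE1, SLIT2 and CCL2), and 22 of the 25 were tested. FGF14 was called higher and SAMD11 lower, PDGFRA was higher by the FDR alone, and the other 19 had FDR values from 0.112 (SCUBE1, log2FC -0.74) to 0.918 (CCL2, log2FC 0.08). TNC, the matrix glycoprotein tenascin C, was at 4.38, 5.06 and 8.47 CPM against 3.45, 3.54 and 3.61 (log2FC 0.75, FDR 0.183), and NGFR, the low-affinity neurotrophin receptor, at 37.01, 32.5 and 14.9 against 18.7, 15.1 and 21.8 (log2FC 0.60, FDR 0.322). CD38, an enzyme that consumes NAD, had a log2FC of 0.63 (FDR 0.427). ALDH1A2, which makes retinoic acid, was at 8.94, 6.98 and 2.97 CPM against 2.05, 2.71 and 3.30 (log2FC 1.22, FDR 0.138), and the alarmin IL33 was at 1.16, 0.911 and 0.544 against 0.108, 0.319 and 0.566 (log2FC 1.33, FDR 0.237). The chemokine receptor CXCR4 was at 33.1, 32.5 and 87.3 CPM against 43.9, 38.3 and 40.8, again with pre-treated replicate 3 apart (log2FC 0.32, FDR 0.678). IKBKE, IL31RA and DPP4 fell below the filter, with at most 18 reads in any of the 6 libraries.

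Of 24 markers of other cell types, 10 passed the filter and were tested, and their summed level was 135, 106 and 99.3 CPM in pre-treated and 39.5, 41.9 and 44.8 in co-treated cells, of which COL3A1 made up most. COL3A1 was the only one called, 2 were higher and none lower at an unadjusted p below 0.05, and the median log2FC of the 10 was 0.39, with 7 positive and 3 negative values. Without pre-treated replicate 3, 3 were higher by the FDR. COL1A1, the defining fibroblast collagen, was at 0.377, 0.632 and 0.607 CPM against 0.288, 0.127 and 0.351 (FDR 0.305), and DCN, the matrix proteoglycan decorin, at 3.60, 2.59 and 1.68 against 1.04, 1.35 and 1.09 (log2FC 1.16, FDR 0.115). GFAP, the intermediate filament of astrocytes, had a log2FC of -0.33 (FDR 0.692).

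The ATRA-only controls, scaled together with the treated libraries over all 12, are given as a description. Pre-treatment control 3 differed from controls 1 and 2 of its experiment, with 17.7% of its reads on small RNA loci against 1.79 and 3.1%, so values are given with and without it. Of the 71 genes called higher in pre-treated cells, the 3 pre-treatment controls were all above the 3 co-treatment controls in 2 and all below in 8, against 4.43% and 6.06% of all genes. Of the 20 called lower, 7 had all pre-treatment controls below and none had all above. Without pre-treatment control 3, 9 of the higher genes had controls on the same side and 14 on the opposite side, and 13 and 1 of the lower genes, where 27.9% of all genes had these controls above and 28.6% below. The median difference between controls (log2, pre minus co) was -0.12 for the genes called higher and -0.51 for those called lower, or -0.21 and -0.73 without pre-treatment control 3. COL3A1 was at 22.2, 13.3 and 17.7 CPM in pre-treatment and 38.6, 23.2 and 20.8 CPM in co-treatment controls, so the control groups overlapped and pre-treatment controls were not the higher ones. SLC18A1 was at 63.2, 94.7 and 70.4 against 102, 107 and 107 CPM, PRSS12 at 209, 189.7 and 212 against 307, 294 and 269.6 and H19 at 136, 861 and 302 against 913, 770.0 and 973. For SLC18A1 and PRSS12 the control groups did not overlap either, with the same experiment lower as in treated cells, while for H19 they overlapped. Whether the treated and control differences differ was not tested.

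Genes called in the 2 directions differed in base composition. Among protein-coding genes, the median GC content of the longest transcript was 42.7% for 52 genes called higher and 58.9% for 18 called lower, against 48.2% for all 14176 tested. The median length was 5875 bases for the genes called higher, 2791 for those called lower and 3853 for all tested. Across all protein-coding genes ranked by GC content and cut into 5 bins of equal size, the median log2FC was 0.18 in the lowest bin and -0.16 in the highest, and genes passing the FDR went from 57 higher and 0 lower to 9 higher and 32 lower. Within libraries, the rank correlation of a gene's deviation from its mean with GC was 0.51 in co-treated replicate 1 and 0.44 in replicate 3, but -0.20 in co-treated replicate 2 and between -0.37 and -0.09 in the pre-treated libraries. These are correlations over genes, which are not independent. When each library's GC trend was removed, an alternative chosen after seeing the data, 59 protein-coding genes were called, 52 higher and 7 lower, against 69, 55 and 14 without the correction. Of the called protein-coding genes, 40 of 52 higher and 6 of 18 lower remained called, among the latter PRSS12, SLC18A1 and SAMD11 and not ID3, TLX2, NNAT, FEV or BOK. These 5 had corrected log2FC values from -0.98 (ID3) to -0.85 (FEV), just inside the threshold of 1, and all had an FDR below 0.05. By the FDR alone, 95 protein-coding genes were higher and 79 lower after the correction, against 120 and 76 before it. COL3A1 was called in both fits.

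**Figure D5:**
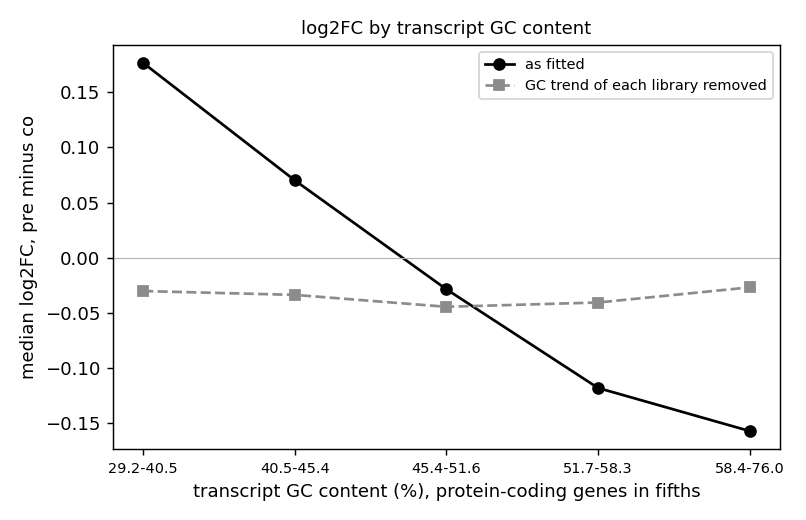
Median log2FC (pre-treated minus co-treated, vertical axis) of 14176 protein-coding genes in 5 bins of transcript GC content (horizontal axis), as fitted (solid line) and after the GC trend of each library was removed (dashed line). The fitted medians run from 0.18 to -0.16, and the corrected ones lie between -0.04 and -0.03.

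Promoters of the leading genes were examined for the letters CG, since transcripts of the 2 directions differed in base composition. RefSeq promoter windows were held for 9 of 12 leading genes in each direction. In the 250 bases upstream of the start, the 35116 windows of all genes held a median of 11 CG, and 93.9% held at least 1. The 12024 tested genes with a window had a median of 20, averaging windows per gene. CG occurred between 0 and 36 times in the windows of the leading genes that were higher and between 4 and 44 times in those of the genes that were lower. To show this spread, the windows with the fewest and the most CG among leading genes with a single window are printed for each direction (BNC2 held as many as EYA4), 5′ to 3′ on the gene's strand (GRCh38.p14), with each CG in capitals. It reads the same on both strands.
GJA1, higher, plus strand, chr6:121435396-121435645: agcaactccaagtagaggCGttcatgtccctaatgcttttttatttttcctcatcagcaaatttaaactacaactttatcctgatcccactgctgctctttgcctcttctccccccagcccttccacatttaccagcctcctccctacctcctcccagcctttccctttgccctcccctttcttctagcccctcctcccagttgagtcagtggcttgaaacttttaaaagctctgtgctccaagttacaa
EYA4, higher, plus strand, chr6:133241107-133241356: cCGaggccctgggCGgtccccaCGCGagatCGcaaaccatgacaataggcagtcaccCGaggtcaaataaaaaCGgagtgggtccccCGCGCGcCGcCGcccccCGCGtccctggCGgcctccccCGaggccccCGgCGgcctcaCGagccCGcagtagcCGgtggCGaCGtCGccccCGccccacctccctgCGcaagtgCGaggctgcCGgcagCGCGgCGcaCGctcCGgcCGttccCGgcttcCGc
H19, lower, minus strand, chr11:2001267-2001516: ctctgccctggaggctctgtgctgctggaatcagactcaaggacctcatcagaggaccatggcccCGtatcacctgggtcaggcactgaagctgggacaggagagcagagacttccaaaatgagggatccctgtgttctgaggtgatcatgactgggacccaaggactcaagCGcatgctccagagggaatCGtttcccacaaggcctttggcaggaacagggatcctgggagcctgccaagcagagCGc
SAMD11, lower, plus strand, chr1:925481-925730: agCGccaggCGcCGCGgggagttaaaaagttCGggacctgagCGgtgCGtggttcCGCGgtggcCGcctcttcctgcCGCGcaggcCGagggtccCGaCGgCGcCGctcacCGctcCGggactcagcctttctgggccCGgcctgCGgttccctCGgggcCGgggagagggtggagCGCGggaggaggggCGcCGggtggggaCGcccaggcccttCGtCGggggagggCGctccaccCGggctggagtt
GJA1 held 1 and EYA4 36 CG in these windows, and H19 4 and SAMD11 32. Since they were picked as the extremes, their spread says nothing about the directions. Apart from H19, every window of the leading genes that were lower held at least 13 CG. Averaged per gene, the median was 13.5 over 46 genes called higher and 24.5 over 14 called lower that had a window, which was not tested. At most 4 CG were found in 34.3% of all windows and at least 30 in 12.4%.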

How the data were processed

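The authors trimmed reads with cutadapt 2.10, mapped them to hg19 with HISAT2 2.1.0 and counted them per gene symbol with HTSeq 0.7.2 (versions per the submitters' processing notes). The deposited values are raw counts for 55765 symbols, with no normalization. The 5 closing entries for uncounted reads, 40.0 to 51.7% of all entries in the treated libraries, were left out. The deposited tables of fold changes and p-values hold the authors' own comparisons and were not used. Annotation version and strand setting are not given in the sources used here.

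The counts of the 6 treated libraries were fitted in edgeR 4.0.16 (R 4.3.3), using TMM factors and the quasi-likelihood test with Benjamini-Hochberg adjustment, and with limma 3.58.1 and DESeq2 1.42.0 as alternatives. Genes needed at least the CPM of 5 reads in the smallest library, in 3 or more libraries. Standard errors are the log2FC over the square root of F. The members, gene lists and tests were chosen with earlier results of these data known. Named genes are the 12 with the smallest p in each direction among called genes of at least 1 CPM whose groups do not overlap, excluding clone names, pseudogenes and small RNAs, then up to 3 called genes per direction of each list (or the 2 of smallest p), 4 called small RNA loci per direction, the 5 neuronal markers and a list of genes the study discusses with 4 others. Genes named outside this rule, among them CYP26A1, CYP26B1, CRABP2, DHRS3, RARG, HAND2, DBH, COL1A1, DCN, NQO1, CCND1, PLXNA2, SEMA6D and HIST1H2BI, were chosen after their values had been seen. Positions come from GENCODE lifted to hg19, which matched 35105 symbols. The fit was tested on simulated counts drawn independently for each gene. There, 94 of 100 genes with a true log2FC of 1.5 in either direction were called, and 9 unchanged genes were too. These counts held no shifts shared by many genes of a library, so they cannot show how the fit handles such shifts. A leading gene with lower values is not reported here.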

Additional observations from a re-analysis of the deposited data

Results flagged for a closer look

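In 6 of the named genes, the 3 pre-treated libraries lay on one side of the 3 co-treated ones while the ATRA-only controls of the pre-treatment experiment lay entirely on the other side of those of the co-treatment experiment. The difference between the treated and the control contrasts was not tested. VCAM1 had a log2FC of 2.39 in treated cells and a control difference (log2, pre minus co) of -0.89. The control difference was -0.67 for FGFR2 (treated 2.00) and -1.60 for NRP1 (treated 1.48), and all 3 were called higher in pre-treated cells. SLIT2, an axon guidance ligand, was at 12.8, 12.6 and 3.96 CPM in pre-treated and 21.6, 26.4 and 16.7 in co-treated cells (log2FC -1.14, FDR 0.165), with a control difference of 1.07 (35.8, 24.8 and 17.6 CPM against 16.3, 10.3 and 10.0). EDEM1, which helps to clear misfolded glycoproteins, had a log2FC of -0.43 (FDR 0.124) and a control difference of 0.39. C8orf4 had a log2FC of 0.79 (FDR 0.311) and a control difference of -4.94, which rests on pre-treatment controls listed at 0.0181, 0 and 0.0152 CPM and on the 0.5 counts added before the log. Groups of 3 libraries are too small for a test of outlying samples.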

How the results depend on the processing

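COL3A1, SLC18A1 and PRSS12 were called under every setting tried, and of 2263 values of named genes under the alternatives, 2018 kept their direction and side of the threshold, 190 lost the call, 39 gained it and 16 changed sign. Many named genes were not called in the main fit and could not lose a call, so the 190 are not to be read against all 2263. IGF2 lost its call under 13 of 23 alternatives and HIST1H2BE under 10 of 21. The 91 calls (71 higher, 20 lower) became 327 (252 and 75) with edgeR's exact test, 261 (198 and 63) with DESeq2, 60 (40 and 20) with limma-voom, 415 (330 and 85) without a filter (where the median log2FC of all genes was 0.10), 16 (11 and 5) with the spread estimated over all 12 libraries, 190 (114 and 76) by FDR alone, 179 (108 and 71) with a log2FC threshold of 0.6 and 59 (52 and 7) with the GC trend removed in protein-coding genes, the last chosen after seeing the data. The cause of these shifts was not tested. Upper-quartile factors gave 76 higher and 12 lower, with a median log2FC of all genes of 0.06. The other normalisations, robust estimation, filterByExpr, thinning of all libraries to the smallest and leaving out small RNAs kept all 3 counts within 1.5 times. With 1 library left out, 6 to 318 genes were called, 2 to 173 higher and 3 to 145 lower. Libraries with the same replicate number were not paired, since their deviations correlated by 0.11, -0.07 and -0.05 and not every library correlated best with its own number, and a replicate block gave 66 calls, 44 higher and 22 lower. With 1 library left out, the sign changed for CXCR4 (-0.31 to 0.56), CFI (-0.34 to 1.07), IL7R (-0.77 to 0.0026), RDH10 (-0.27 to 0.049), LIF (-0.55 to 0.047), TLR4 (-0.034 to 0.66), MAPT (-0.23 to 0.091), FZD7 (-0.068 to 0.24), AKR1C3 (-0.25 to 0.054) and CCL2 (-0.23 to 0.41), given as the lowest and highest log2FC. It also changed for CCHCR1 (-0.087) and CCL2 (-0.029) with limma-voom, CCL2 (-0.031) with the replicate block and MAPT (0.050) with the GC trend removed. None of these genes passed the test with all libraries.

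With 3 libraries a group, the shallowest co-treated library holding 27576276 reads and every pre-treated library being deeper, genes near the filter of 0.181 CPM rest on few reads. Timing, exposure time, experiment and depth cannot be told apart.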
